A study of Mus musculus with 8 samples.

Results

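The let-7 and miR-98 miRNAs were examined in kidneys of tacrolimus-treated and control mice. Members were chosen by name, with earlier results of these data known, as 10 of the 1023 mouse miRNA names on the array. All of their probes were kept, 22 of 2645. The 10 are the 5p strands of let-7a, let-7b, let-7c, let-7d, let-7e, let-7f, let-7g, let-7i and miR-98, and the 3p strand of let-7d. Kidney RNA of CD-1 mice, an outbred stock, was hybridised to 8 one-colour Agilent miRNA arrays. The 4 control arrays carried RNA from mice given physiological serum, and the 4 tacrolimus arrays carried RNA from mice given 1 mg of tacrolimus per kg per day over 28 days. Every sample was total kidney with an RNA integrity number of 9 and an input of 0.1 µg, and the labels used here give no age. Nothing in them ties a replicate to its own mouse, and the p-values therefore reflect spread among samples that could be technical. Tacrolimus is a calcineurin inhibitor used against transplant rejection and known for kidney toxicity, and the study asked whether kidney miRNA levels are altered with it.

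miRNAs are short RNAs that guide Argonaute proteins to messenger RNAs, mainly by pairing of the seed at their 5′ end, and lower the output of those messengers. The let-7 family is conserved across animals, is known for holding cells in a differentiated state, and represses Ras, Hmga2 and Myc messengers, while Lin28 proteins block the maturation of most let-7 precursors. In kidney, let-7 miRNAs have been described as repressors of the type I TGF-beta receptor, a receptor of the fibrosis pathway.

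The mature sequences are shown because the members are so alike that the array can separate them only in part. They are RefSeq's for GRCm38.p6, where all 10 names were found. They are written 5′ to 3′, and capitals mark the seed (bases 2 to 8).
mmu-let-7a-5p: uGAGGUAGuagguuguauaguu
mmu-let-7b-5p: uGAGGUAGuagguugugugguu
mmu-let-7c-5p: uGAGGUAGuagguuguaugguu
mmu-let-7d-5p: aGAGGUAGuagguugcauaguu
mmu-let-7e-5p: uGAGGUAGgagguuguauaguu
mmu-let-7f-5p: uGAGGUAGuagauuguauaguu
mmu-let-7g-5p: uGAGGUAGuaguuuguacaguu
mmu-let-7i-5p: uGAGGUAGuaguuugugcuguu
mmu-miR-98-5p: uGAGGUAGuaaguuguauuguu
mmu-let-7d-3p: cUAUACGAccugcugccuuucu

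The seed GAGGUAG was shared by 9 of the 10, and let-7d-3p, from the opposite strand of the let-7d hairpin, had the seed UAUACGA. Counting from 1 at the 5′ end and giving the base of let-7a first, let-7c differed from let-7a by A19G, let-7e by U9G and let-7f by G12A. let-7b differed by A17G and A19G, let-7d by U1A and U16C, let-7g by G12U and U18C, and miR-98 by G11A and A19U. let-7i differed most from let-7a, by G12U, A17G, U18C and A19U.

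The probes show what each measurement could tell apart. Below are the brightest probes of 4 members, from the array files, written 5′ to 3′ as DNA complementary to the miRNA. Capitals mark the bases that differ from the exact complement of the most similar other member or members.
let-7i-5p: aacAgCacaaactactacctc
let-7c-5p: aacCaTacaacctactacc
let-7b-5p: aaccaCacaacctactacc
let-7a-5p: aacTatAcaaCctActacct

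The let-7i probe had 2 mismatches to its most similar member, let-7g. The let-7c probe had 1 mismatch to let-7a and 1 to let-7b, the let-7b probe had 1 to let-7c, and the let-7a probe had 1 each to let-7c, let-7d, let-7e and let-7f. Probes of let-7d, let-7e and let-7f likewise had 1 mismatch to let-7a, and those of let-7g and miR-98 had 2 to their most similar members. A member's signal may therefore hold RNA of its near-identical relatives, and how much was not tested. Each value below is uncertain as a measurement of that member alone.

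No let-7 or miR-98 miRNA passed the test for a difference between tacrolimus and control kidneys. A probe was taken as detected where at least 0.5 of its spots were well above background, and a miRNA entered the test where its brightest probe met this on 4 or more of the 8 arrays. Of the 10 members 9 were tested, all but let-7d-3p, and 0 rose and 0 fell after Benjamini-Hochberg adjustment in limma over 194 tested miRNAs. Over all tested miRNAs 6 were called, or 3.09%, each higher in tacrolimus kidneys, whereas normexp background correction gave 1 call, which was lower. Without control 3 there was 1 call and without control 4 there were 2, all lower. At an unadjusted p under 0.05 there was 1 member, let-7i, against 30 of all tested miRNAs (15.5%). Differences are log2 tacrolimus minus control signals, and 8 of the 9 were above 0, against 115 of all tested (59.3%). Their median was 0.066, beside 0.039 over all tested miRNAs. When arrays were scaled by their medians it fell to -0.0066, beside -0.029 over all tested miRNAs. In bulk kidney RNA, fewer cells of a type and less RNA per cell cannot be told apart.

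Signals are log2 values relative to the 75th percentile, on each array, of those probes that all 8 arrays detected, so that 0 equals that percentile. They are not comparable between members, since each probe has its own brightness. All 9 tested members were detected on all 4 control and all 4 tacrolimus arrays.

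let-7i, which has described roles in restraining innate immune signalling through Tlr4, showed the widest difference of the 9 members. Its signal was 0.78, 0.48, 0.56 and 0.55 on control arrays 1 to 4, and 0.79, 1.07, 0.75 and 0.82 on tacrolimus arrays 1 to 4. Of the tacrolimus arrays 3 lay above every control array, tacrolimus 2 stood highest, and tacrolimus 3 lay below control 1, so that the groups overlapped. The mean went from 0.59 ± 0.13 to 0.86 ± 0.14 (SD, n = 4 arrays each). The difference of 0.26 (SE 0.095, 95% interval 0.049 to 0.48), or 1.20-fold, did not pass the threshold in limma (adjusted p = 0.244).

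The other let-7i probe, 1 base shorter, gave a difference of the same size. It read -0.20, -0.45, -0.36 and -0.34 on control arrays 1 to 4 and -0.12, 0.12, -0.16 and -0.094 on tacrolimus arrays 1 to 4. Here all 4 tacrolimus arrays lay above every control array, as did those of 24 of 357 tested probes (6.72%). The difference was 0.28 (SE 0.084) and did not pass limma's test over all probes (adjusted p = 0.162). The gene Mirlet7i lies between Ppm1h and Mon2, with the mature sequence at chr10:122985698-122985719 on the minus strand of GRCm38.p6.

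let-7c was the 1 member whose brightest probe separated the groups. It read 3.25, 3.06, 3.19 and 3.22 on control arrays 1 to 4, and 3.28, 3.37, 3.31 and 3.30 on tacrolimus arrays 1 to 4. Every tacrolimus array was above every control array, by a narrow margin between control 1 and tacrolimus 1, and 16 of the 194 tested miRNAs (8.25%) showed such a separation upwards. The difference of 0.13 (SE 0.065, 95% interval -0.015 to 0.28) did not pass the threshold in limma (adjusted p = 0.379). The shorter let-7c probe gave 0.079 (SE 0.068), and there the groups overlapped. Its gap of 0.053 between probes was the widest among the 9 members.

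let-7c and let-7b share a locus, since Mirlet7c-2 and Mirlet7b are nearest neighbours within the long RNA gene Lncppara on chromosome 15. let-7b, described as a repressor of the TGF-beta receptor in kidney cells, read 2.86, 2.49, 2.71 and 2.62 on control arrays 1 to 4. On tacrolimus arrays 1 to 4 it read 2.71, 2.81, 2.74 and 2.77. The controls were spread on both sides of the tacrolimus arrays, with control 1 highest and control 2 lowest of all 8. The difference was 0.089 (SE 0.084, 95% interval -0.10 to 0.28, adjusted p = 0.646 in limma).

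**Figure D1:**
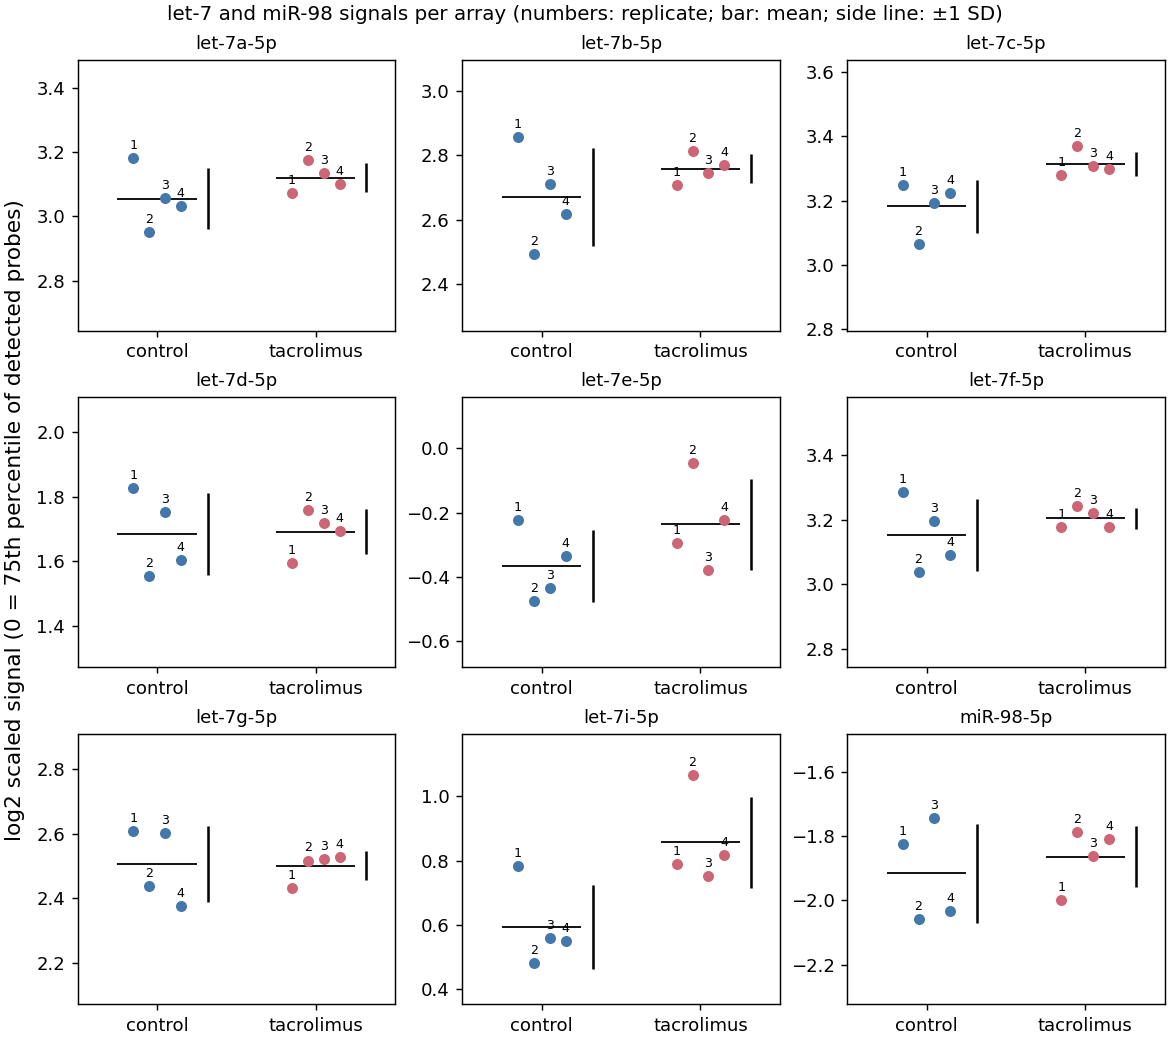
Log2 scaled signal (vertical axis, 0 at the 75th percentile of the detected probes) of the 9 tested members on each array, with the replicate number at each point, a bar at the group mean and a side line of 1 SD either way. All panels span the same range of log2 units. The groups separate for let-7c-5p alone, and for let-7i-5p 3 of 4 tacrolimus arrays lie above every control array.

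let-7a, let-7d and let-7f come in part from 1 cluster, as Mirlet7d, Mirlet7f-1 and Mirlet7a-1 lie next to each other on chromosome 13. let-7a read 3.18, 2.95, 3.06 and 3.03 on control arrays 1 to 4 and 3.07, 3.17, 3.14 and 3.10 on tacrolimus arrays 1 to 4. let-7f read 3.29, 3.04, 3.20 and 3.09 on the control arrays, and 3.18, 3.24, 3.22 and 3.18 on the tacrolimus arrays. For both, all 4 tacrolimus arrays lay between control 2 and control 1.

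let-7d, from the same cluster, read 1.83, 1.55, 1.75 and 1.60 on control arrays 1 to 4 and 1.59, 1.76, 1.72 and 1.69 on tacrolimus arrays 1 to 4. Again control 1 was highest and control 2 lowest. The differences of let-7a, let-7f and let-7d were 0.066, 0.052 and 0.0072 (SE 0.068, 0.071 and 0.080), with adjusted p-values in limma of 0.657, 0.747 and 0.970. With median scaling they were -0.0066, -0.021 and -0.065, so no direction is given for the cluster.

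let-7e is encoded within Spaca6 on chromosome 17, between Mir99b and Mir125a. It read -0.22, -0.47, -0.44 and -0.33 on control arrays 1 to 4, and -0.29, -0.046, -0.38 and -0.22 on tacrolimus arrays 1 to 4. tacrolimus 2 stood apart at the top, and the other 3 tacrolimus arrays lay among the controls. The difference of 0.13 (SE 0.091, 95% interval -0.074 to 0.34) did not pass the threshold in limma (adjusted p = 0.540).

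let-7g, encoded within Wdr82 on chromosome 9, read 2.61, 2.44, 2.60 and 2.37 on control arrays 1 to 4, and 2.43, 2.52, 2.52 and 2.53 on tacrolimus arrays 1 to 4. It was the 1 member below 0, by a difference of -0.0052 (SE 0.074, 95% interval -0.17 to 0.16, adjusted p = 0.981 in limma), and without scaling of the arrays it stood at 0.15. The controls were split into a higher and a lower pair, with the tacrolimus arrays between them or beside the lower pair.

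miR-98, encoded with Mirlet7f-2 within Huwe1 on the X chromosome, carries the family's seed under another name. It read -1.83, -2.06, -1.75 and -2.03 on control arrays 1 to 4, and -1.999, -1.79, -1.86 and -1.81 on tacrolimus arrays 1 to 4. The tacrolimus arrays all lay within the range of the controls. The difference was 0.051 (SE 0.091, 95% interval -0.15 to 0.26, adjusted p = 0.798 in limma) and -0.022 with median scaling.

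let-7d-3p was not well above background on any array by any of its 4 probes, and was not tested. The other opposite strands of the family behaved alike: of 11 listed, 10 had a name of their own on the array and all 10 were detected on no array. Under this scaling, the highest upper limit of the 95% intervals of the 9 tested members was 1.39-fold, for let-7i, and those of let-7g and let-7d were 1.12-fold and 1.14-fold. These limits cover the spread between arrays only, and the differences themselves moved with the scaling, for let-7i between 0.19 and 0.42.

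**Figure D2:**
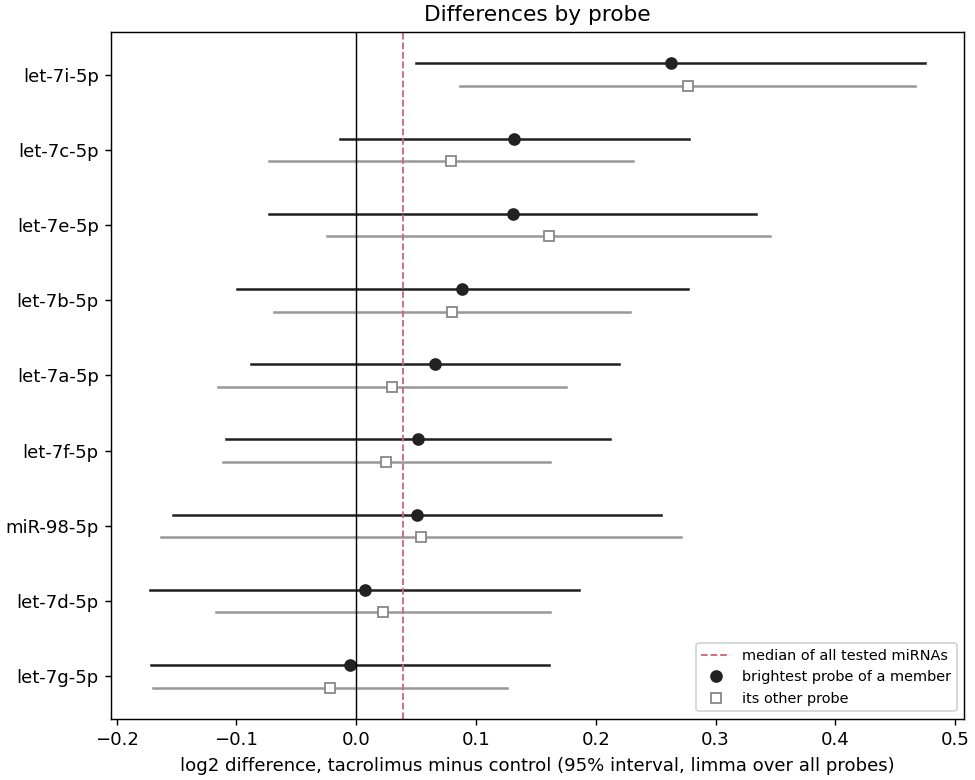
Log2 difference of tacrolimus minus control (horizontal axis) for both probes of each tested member, with 95% intervals from limma over all tested probes, the solid line at 0 and the dashed line at the median of all tested miRNAs (0.039). Both let-7i-5p intervals lie above 0 before adjustment, while those of the other 8 members span 0.

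Both probes of a member gave like values, although they differ in brightness. The shorter probe is the longer one without its last base, so the 2 are not independent measurements. Each member thus enters the counts of probes 2 times. All 9 tested members had 2 probes past the filter, with differences of the same sign in 9 of 9. The gap between a member's probes ran from 0.0033 for miR-98 to 0.053 for let-7c. Of the 18 tested member probes 0 passed limma's test over all 357 probes, of which 0 passed as well (0%). At an unadjusted p under 0.05 there were 2 member probes, both of let-7i, against 53 of all probes (14.8%). Of the 18, 16 were above 0, against 219 of the 357 (61.3%). The median difference was 0.060 over the member probes and 0.036 over all probes.

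On 3 of the 8 arrays all 9 members deviated in the same direction, and on others they were split. The mean log2 signal of the 9 members was 1.62 ± 0.11 on control and 1.70 ± 0.063 on tacrolimus arrays (SD, n = 4 each), a difference of 0.087. Relative to its own 8-array mean, every one of the 9 members was low on control 2 (on average by -0.16) and on control 4 (-0.092). Every one was high on tacrolimus 2 (0.13). On control 1, tacrolimus 3 and tacrolimus 4, 8 of 9 were high (0.088, 0.023 and 0.044). Members were split on control 3, with 4 of 9 high (-0.17 to 0.15), and on tacrolimus 1, with 3 of 9 high (-0.11 to 0.064).

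The median deviation over all tested miRNAs had the sign of the members' average on every array but control 3. It was -0.098 on control 2, -0.056 on control 4, 0.036 on tacrolimus 2 and 0.031 on control 1. On tacrolimus 1, tacrolimus 3 and tacrolimus 4 it was -0.00080, 0.028 and 0.0019. On control 3 it was 0.031 against the members' -0.0070. let-7i was the most displaced member on tacrolimus 2, at 0.34 above its own mean, and on control 2, at -0.24.

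**Figure D3:**
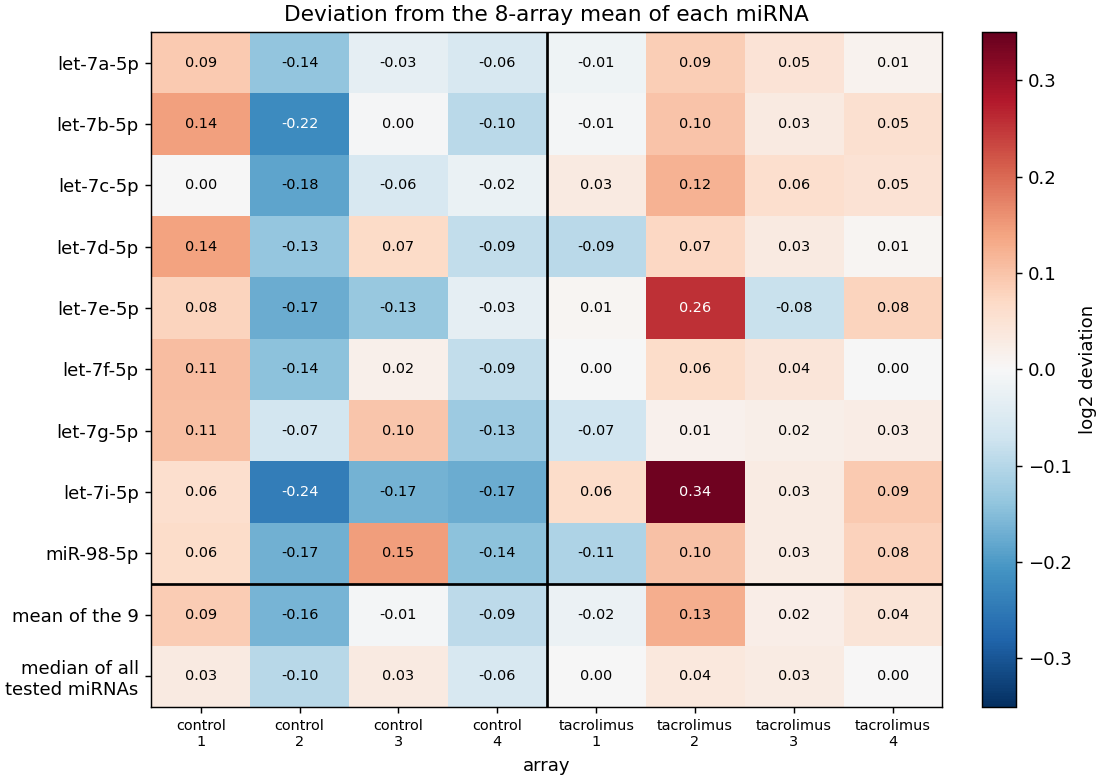
Deviation of each tested member's log2 signal from its own 8-array mean (colour and printed value) by array (columns), above rows for the mean of the 9 members and the median of all tested miRNAs. Control 2 and control 4 are below 0 and tacrolimus 2 is above 0 for all 9 members, and let-7i-5p on tacrolimus 2 deviates most (0.34).

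Similarity of pattern was measured as the root mean square difference of these deviations over the 8 arrays, and is a description without a test, since all values share arrays and scaling. let-7a, let-7b and let-7f followed the other 5p members most closely, at 0.031, 0.034 and 0.037. let-7e and let-7i followed them least, at 0.087 and 0.12. The closest pair was let-7a and let-7f (0.024), which differ by 1 base, and the farthest was let-7g and let-7i (0.17), which differ by 2.

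The tested miRNAs outside the family most like its mean were miR-24-3p, miR-27a-3p, miR-140-5p, miR-1839-5p and miR-532-5p, at 0.041 to 0.052, where the median of all tested miRNAs was 0.14. The first 4 of these lay closer to the family mean than 6 of its 9 members did, although that mean includes each member. Their differences were 0.069, 0.094, 0.048, 0.14 and 0.14 in that order, and 0 of these 5 passed the threshold in limma. With median scaling miR-24-3p and miR-140-5p fell below 0, at -0.0033 and -0.024.

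miRNAs encoded beside let-7 genes gave a similar picture. Mirlet7c-1 lies between Mir99a and Mir125b-2 on chromosome 16, Mirlet7e between Mir99b and Mir125a, and Mirlet7a-2 next to Mir100 within Mir100hg on chromosome 9. Of 11 listed products of such neighbouring genes 5 were tested and 0 were called by limma, against 3.09% of all tested miRNAs. At an unadjusted p under 0.05 there was 1, against 15.5% of all tested. All 5 differences were above 0, against 59.3% of all tested, with a median of 0.11 beside 0.039. However, miR-99a-5p at 0.020 fell to -0.052 with median scaling. Of the other 6, 5 were detected on no array and miR-125a-3p on 2 tacrolimus arrays.

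miR-100-5p, a miRNA known for targeting Mtor, read -2.67, -2.71, -2.82 and -2.67 on control arrays 1 to 4, and -2.37, -2.64, -2.61 and -2.53 on tacrolimus arrays 1 to 4. Its groups did not overlap, with tacrolimus higher, as in 16 of the 194 tested miRNAs (8.25%). The difference of 0.18 (SE 0.077) did not pass the threshold in limma (adjusted p = 0.301). miR-99b-5p, the neighbour of let-7e, differed by 0.20 (SE 0.10, adjusted p = 0.402 in limma), and its highest array was tacrolimus 2, as for let-7e. miR-125b-5p and miR-125a-5p stood at 0.11 and 0.088 (adjusted p = 0.475 and 0.646 in limma). miR-202-3p, whose seed GAGGUAU ends in another base than that of let-7, differed by -0.011 (SE 0.11, adjusted p = 0.968 in limma).

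The direction of the smaller differences rested on how arrays were scaled. Members above 0 numbered 9 of 9 with no scaling, with a median of 0.22 against 0.19 over all tested miRNAs, and 4 of 9 with median scaling or with the software's total gene signal. let-7i, let-7c and let-7e stayed above 0 in all 22 alternatives, but several of these could not move their differences. Other filters, a higher floor, another variance estimate in limma and the replicate block left them exactly as they were. The authors' value table repeated the total gene signal. let-7i was lowest with median scaling and highest without scaling. It was 0.19 without tacrolimus 2 and 0.33 without control 1, its lowest adjusted p in any alternative (0.104 in limma). The members' median was 0.030 without control 2, 0.11 without control 1 and 0.10 without control 3.

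**Figure D4:**
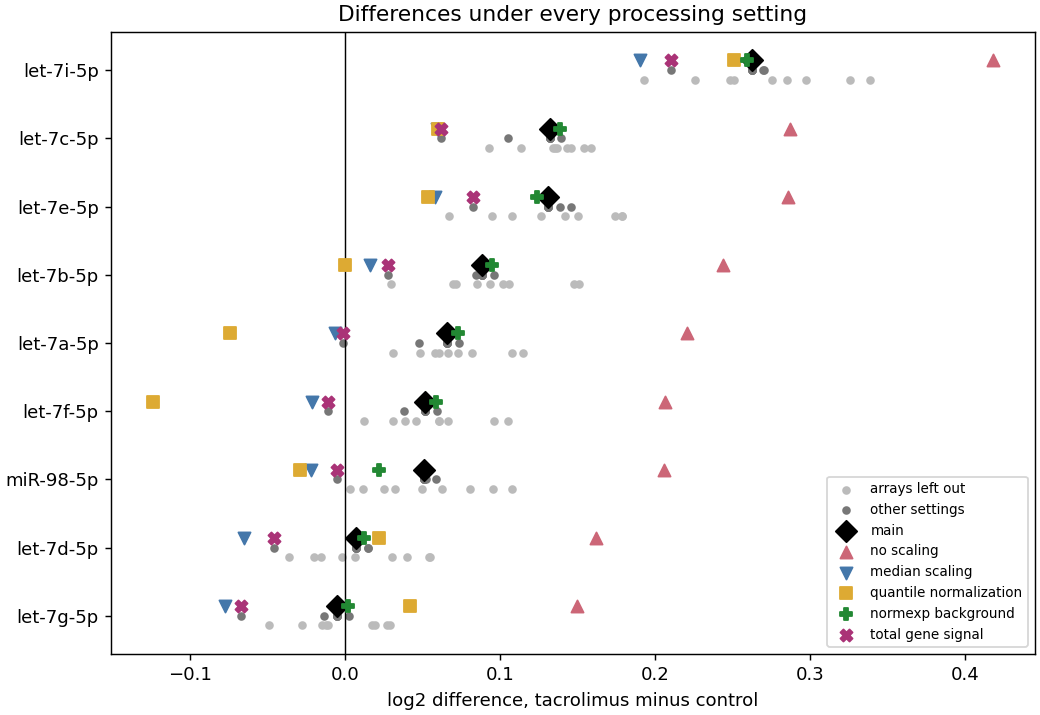
Log2 difference of tacrolimus minus control (horizontal axis) of the 9 tested members under the main processing (black diamond), 5 named alternatives (coloured), other settings (dark grey) and fits without 1 or 2 arrays (light grey). let-7i-5p, let-7c-5p and let-7e-5p lie above 0 throughout, while let-7a-5p, let-7f-5p, miR-98-5p, let-7d-5p and let-7g-5p change sign between scalings.

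No listed cell type marker passed the test, and 0 were called by limma in any of the lists, against 3.09% of all tested miRNAs. Of all tested miRNAs, 59.3% were above 0 and 15.5% had an unadjusted p under 0.05. All 6 kidney tubule markers on the list, miR-192-5p among them, were detected and tested. Of these 4 were above 0 (median 0.097, range -0.052 to 0.34, 1 at an unadjusted p under 0.05). Their summed linear signal was 13.7 to 14.5 on control and 13.8 to 14.6 on tacrolimus arrays. Such sums mostly reflect the brightest miRNAs of a list. All 6 leukocyte markers were above 0 (median 0.45, 4 at an unadjusted p under 0.05), with summed signals of 0.566 to 0.832 on control and 0.833 to 1.11 on tacrolimus arrays. All 3 erythrocyte markers were below 0 (median -0.67, 3 at an unadjusted p under 0.05), with sums of 2.09 to 5.81 on control and 1.88 to 2.50 on tacrolimus arrays. The leukocyte markers miR-142a-5p and miR-150-5p and the erythrocyte marker miR-486a-5p were not detected on every array. The 3 endothelium and smooth muscle markers stood at -0.075 to 0.030 (median -0.033, 0 at an unadjusted p under 0.05), with sums of 3.72 to 4.38 and 3.85 to 4.12. Of 3 striated muscle markers 0 were tested and 2 were detected on no array. The liver marker miR-122-5p was detected on no array. The summed signal of the let-7 members was 40.7 to 48.1 on control and 44.9 to 48.3 on tacrolimus arrays. The part of other cell types in the let-7 differences was not tested.

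The arrays detected 147 to 220 miRNAs each. tacrolimus 4 detected the fewest, and its negative controls varied most. Without tacrolimus 4 let-7i stood at 0.28, without control 1 at 0.33 and without both at 0.34. The 1 slide carried the control arrays in its first row and the tacrolimus arrays in its second, which means that row and treatment cannot be told apart. The number of arrays limits the precision.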

How the data were processed

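Per array, the authors deposited linear spot intensity values from the scanner, made with Agilent Feature Extraction 10.7.3.1, background-subtracted and not scaled between arrays, per the file headers. The authors' deposited value table equalled the software's total gene signal intensity in 100% of cells (tolerance 1e-06), linear and not normalized, with a median of 0.1 in each group. The labels name a labelling kit for mRNA and say no more on labelling.

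Spots marked non-uniform or as outliers were left out (7.36% to 11.2% per array), 0 were saturated, and spots of a probe were averaged. Each array was divided by its 75th percentile over 252 probes that were detected throughout, a floor was set (log2 -5.96) and log2 taken. A miRNA was represented by its brightest probe and tested if detected on at least 4 of 8 arrays, in either group (194 of 1023). Groups were compared in R 4.3.3 with limma 3.58.1 (lmFit, eBayes, two-sided), adjusted by Benjamini-Hochberg over all tested miRNAs, or over 357 probes, at a threshold of 0.05. Of these steps only the limma comparison was tested on simulated data, with independent values and planted changes larger than any member's difference. Recovery of differences as small as those of the members was not tested. Members, gene lists and tests were chosen with earlier results of these data known. Every member, the tested cluster partners and related names, and the 5 most similar miRNAs were named, while cell type markers are given by count and range.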

Additional observations from a re-analysis of the deposited data

Results flagged for a closer look

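In 40 groups of 4 arrays, 2 held an array far from the other 3 by Dixon's test, and chance alone gives about 2. let-7g-5p on tacrolimus 1 stood at 2.43, which was -0.090 relative to the mean of the other tacrolimus arrays (2.52). miR-125a-5p, encoded beside let-7e, stood at -1.95 on tacrolimus 2, 0.20 higher than the other 3 on average (-2.15).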

How the results depend on the processing

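The count of called family members was 0 in limma in all 22 alternatives, with 0 to 2 at an unadjusted p under 0.05. The count of called member probes was 0 as well, apart from total gene signal and the value table, which hold no values per probe. The lowest adjusted p of any member ran from 0.104 to 0.995. The members' median lay above that of all tested miRNAs in 22 of 22, by 0.0077 to 0.10. Another variance estimate and the replicate block cannot move either median, and the value table repeats the total gene signal. The members' median moved most without scaling, to 0.22, and ran from 0.030 to 0.11 with 1 array left out. Calls over all miRNAs ran from 0 to 8, with 0 in 13 alternatives. They were 6 higher and 2 lower with median scaling, 6 and 1 with quantile normalization, and 1 and 1 without tacrolimus 2.

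Some members and other miRNAs changed sign, each within 0.15 of 0. With median scaling let-7a, let-7d, let-7f and miR-98 stood at -0.0066, -0.065, -0.021 and -0.022, and miR-99a-5p, miR-24-3p and miR-140-5p at -0.052, -0.0033 and -0.024. With total gene signal, and equally in the authors' value table, let-7a, let-7d, let-7f and miR-98 stood at -0.0014, -0.046, -0.011 and -0.0051, and miR-99a-5p and miR-140-5p at -0.027 and -0.015. With quantile normalization let-7a, let-7f, let-7g and miR-98 stood at -0.074, -0.12, 0.042 and -0.029, and miR-99a-5p, miR-125a-5p and miR-140-5p at -0.032, -0.021 and -0.031. let-7g stood at 0.15 without scaling, 0.0017 with normexp background, 0.0026 with the 75th percentile of all probes and 0.020 without control 1 and tacrolimus 4. miR-202-3p stood at 0.14 without scaling and miR-532-5p at -0.010 with normexp. With 1 array left out, let-7g ran from -0.049 to 0.029, let-7d from -0.036 to 0.055, miR-202-3p from -0.078 to 0.041 and miR-99a-5p from -0.031 to 0.062. Median scaling, no scaling and the 75th percentile of all probes each shift the differences of all these miRNAs by the same amount. The sign changes under those 3 settings follow from that shift. The cause of the other changes was not tested.

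Arrays of both groups share replicate numbers, which also equal the slide column. For this check deviations were taken from the mean of the array's own group. Those of same-numbered arrays correlated at 0.109, 0.140, 0.112 and 0.0946 over all tested miRNAs. Of the 4 numbers 1 matched best with itself, so the numbers were not taken as pairs. With the replicate number as a block, 0 members were called and their lowest adjusted p in limma was 0.276. Both groups hold the same numbers, so a block cannot move a difference, and the members' median was 0.066 by design. Calls over all miRNAs went from 6 to 0, with 31 at an unadjusted p under 0.05.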
